A study of Homo sapiens with 54 samples.

Results

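The genes described here are 39 genes of the G1/S transition and of DNA replication, out of 25435 genes in the expression table. They were taken by symbol from a fixed list, which was chosen with earlier results of these data known. They comprise 6 cell cycle regulators (CCNE1, CCNE2, CCND1, CDK2, E2F1, E2F2), 10 origin licensing genes (ORC1, ORC6, CDC6, CDT1, MCM2 to MCM7), 7 genes of origin firing and the replicative helicase (MCM10, CDC45, CDC7, GINS1 to GINS4), 12 genes of the sliding clamp, its loader, the polymerases and FEN1 (PCNA, RFC2 to RFC5, POLA1, POLA2, POLD1, POLE, POLE2, PRIM1, FEN1), and 4 genes of nucleotide supply and histone mRNA binding (RRM1, RRM2, TYMS, SLBP). All 39 passed the filter on low values and were tested.

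Bulk RNA of 6 established cell lines of high-grade serous ovarian cancer was sequenced. Carboplatin is a platinum compound that forms crosslinks in DNA. The lines form 3 pairs, each from 1 patient: the platinum-sensitive PEA1, PEO1 and PEO14 and their resistant partners PEA2, PEO4 and PEO23. Each line was sequenced untreated, which the series describes as vehicle harvested at 24 h, and again following exposure to 80 µM carboplatin for 8 h or 24 h, with 3 cultures per line and time (54 libraries in 18 groups). The 8 h cultures are thus set against vehicle harvested at 24 h, so harvest time and treatment cannot be told apart there. Each pair is a single sensitive and a single resistant line, so a difference between partners belongs to those 2 lines. No genotype or transgene is given in the labels for any group, and all cultures grew in the same medium with serum.

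Treated cultures were at a later passage than the same-numbered untreated ones in 17 of 18 cases, so passage and treatment cannot be told apart in those. PEA2 was at passage 23 to 27 and PEA1 at a far higher one. The libraries listed 2678 to 17133 genes above 0, and the 12 below 12000 were set aside. In these, 27.4% of the values of the 39 genes were listed at 0, against 0.366% in the 42 kept. Untreated PEA1, the 24 h group of PEO4 and the 24 h group of PEO14 each kept 1 library, and untreated PEO23 kept none. Levels are in TPM, a length-normalised share of the transcripts in a library, divided by a scale factor per library. In the kept libraries 11 epithelial and ovarian markers summed to 666.3 to 9632 untreated and 607.2 to 12890 treated. The sums were 1.506 to 162.9 and 0 to 155.6 for 6 endothelial, 1.471 to 71.5 and 0 to 30.33 for 7 fibroblast, and 3.779 to 40.63 and 0 to 6.441 for 8 leukocyte markers, and their part in the results was not tested. CD3D, CD3E and MS4A1 were listed at 0 in all of them.

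Entry into S phase is controlled by cyclin D and cyclin E kinases, which release E2F transcription factors from RB. E2F factors in turn drive many of the genes needed to copy DNA. Origins are licensed in G1 when ORC, CDC6 and CDT1 load the MCM2-7 ring, and they fire when CDC45 and GINS join that ring to form the CMG helicase. RFC then loads the PCNA clamp for polymerases delta and epsilon. Platinum crosslinks block replication forks and activate the S phase checkpoint, which restrains new origins.

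The promoters of 4 genes on which the comparisons turn are shown first, as 300-base RefSeq sequences of build GRCh38.p14, from 250 bases before to 50 bases after the annotated start, 5′ to 3′ on the gene's strand. Capitals mark a match to an E2F motif. PCNA lies at chr20:5126573-5126872 (minus strand), POLE2 at chr14:49688165-49688464 (minus), CDC6 at chr17:40287629-40287928 (plus) and POLE at chr12:132687293-132687592 (minus). PCNA, POLE2 and CDC6 stand for transcripts that were higher in carboplatin and POLE for the transcript that was lower.
PCNA: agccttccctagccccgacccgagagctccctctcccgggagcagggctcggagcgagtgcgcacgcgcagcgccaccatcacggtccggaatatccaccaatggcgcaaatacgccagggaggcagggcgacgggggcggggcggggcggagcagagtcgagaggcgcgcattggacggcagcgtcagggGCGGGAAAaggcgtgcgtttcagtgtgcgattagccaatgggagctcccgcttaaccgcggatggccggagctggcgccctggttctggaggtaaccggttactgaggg
POLE2: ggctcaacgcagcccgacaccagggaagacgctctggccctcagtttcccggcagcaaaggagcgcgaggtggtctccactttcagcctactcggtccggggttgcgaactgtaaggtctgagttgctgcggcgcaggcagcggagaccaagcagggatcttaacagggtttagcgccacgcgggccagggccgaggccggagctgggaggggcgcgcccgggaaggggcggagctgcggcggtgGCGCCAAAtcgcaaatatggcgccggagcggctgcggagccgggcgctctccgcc
CDC6: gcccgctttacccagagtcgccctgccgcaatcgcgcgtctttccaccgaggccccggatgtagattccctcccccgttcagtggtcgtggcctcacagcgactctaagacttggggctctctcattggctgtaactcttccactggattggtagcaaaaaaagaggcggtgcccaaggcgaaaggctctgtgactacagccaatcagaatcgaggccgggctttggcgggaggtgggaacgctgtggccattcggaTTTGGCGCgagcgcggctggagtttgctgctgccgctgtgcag
POLE: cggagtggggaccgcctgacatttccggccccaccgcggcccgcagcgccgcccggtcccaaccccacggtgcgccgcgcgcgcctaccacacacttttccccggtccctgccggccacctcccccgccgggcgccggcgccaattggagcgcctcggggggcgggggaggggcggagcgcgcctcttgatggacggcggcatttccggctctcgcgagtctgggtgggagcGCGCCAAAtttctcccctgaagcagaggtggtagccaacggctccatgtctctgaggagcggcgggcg
The matches begin 59, 5 and 18 bases before the start in PCNA, POLE2 and POLE and 7 bases after it in CDC6. The letters searched on both strands were TTTCCCGC, TTTCGCGC, TTTGCCGC and TTTGGCGC, and a promoter with several or overlapping matches counted once. Of the 33 members with a promoter in the table, 18 held a match (54.5%), against 3.31% of all 35116 promoters of the same length. CCNE2, CCND1, CDK2, MCM4, MCM5 and GINS4 had no entry. The letters CCAAT were in 18 of the 33 (54.5%, against 34.6% of all promoters), and TTTGAA, the core of the CHR element of many mitotic genes, in 1 of the 33 (3.03%, against 15.2%). The 18 members with an E2F match had a median change of 0.35 at 8 h, from -1.92 to 2.03, and the 15 without one of 0.91, on the log2 scale defined next. A match is a description of these letters and not of binding, and both POLE, which fell, and PCNA, which rose, have one.

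In carboplatin, POLE transcripts fell and those of PCNA and PRIM1 rose in the average over lines at both times, whichever way the libraries were processed. CCNE2, ORC6, CDC6, GINS3, RRM2 and SLBP also rose at 24 h under every way tried. The MCM2-7 genes had no direction that held. Changes are differences of log2(rescaled TPM + 1), which understate the change of low genes. Changes were tested with limma over 17989 genes, with Benjamini-Hochberg adjusted p under 0.05 as the threshold. Averaged over the 5 lines with kept untreated libraries, 25 members rose and 6 fell at 8 h. That is 79.5% of the members, against 63.6% of all genes tested (23.9% higher and 39.7% lower). At 24 h 28 rose and 4 fell, which is 82.1% of the members, against 56.8% of all genes (21.7% higher and 35.2% lower). The members' median change was 0.65 at 8 h and 0.82 at 24 h, against -0.22 and -0.19 for all genes. The direction of the calls was thus mostly upward where that of all genes was mostly downward. Without the rescaling the counts were 4 higher and 14 lower at 8 h and 14 and 7 at 24 h. With RMRP and RPPH1 left out of the TPM total they were 11 and 14 at 8 h and 16 and 6 at 24 h. The shares of all genes called under these 2 settings are not given, so these counts have no such comparison. Without the rescaling the members' median was -0.18 at 8 h and 0.19 at 24 h, against -0.74 and -0.58 for all genes. The 5 changes at 8 h and the 5 at 24 h share the untreated libraries, so the 2 times are not separate evidence. In bulk RNA, fewer cells in S phase and less of a transcript per cell cannot be told apart.

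The direction of many members depends on the scaling. Without the rescaling, the all-gene median moved from -0.22 to -0.74 at 8 h and from -0.19 to -0.58 at 24 h. The smallest scale factors of the kept libraries were 0.261 and 0.264, in the second 8 h libraries of PEO1 and PEO4. Untreated libraries had factors of 1.15 to 1.73. Levels were divided by these factors, so levels in those PEO1 and PEO4 libraries were raised most. RMRP and RPPH1, short non-coding RNAs, together took a median of 10.9% of the TPM in untreated libraries, 21.1% at 8 h and 15.7% at 24 h, and because TPM sums to a fixed total their share bears on the TPM of every other gene. The kept libraries were processed in 4 ways (as reported, without rescaling, without RMRP and RPPH1 in the TPM total, and corrected for GC content and length). As reported, the all-gene median was below 0, so each member called higher lay above it there by construction. With the GC and length correction the all-gene median was 0.08 at 8 h and 0.09 at 24 h. All 25 members called higher at 8 h and all 28 at 24 h lay above the all-gene median under all 4. Of those called lower, 5 of 6 at 8 h and 3 of 4 at 24 h stayed below it under all 4. The first 3 ways differ by a factor per library, which moves members and the all-gene median nearly alike. For a place relative to that median they are therefore not separate checks, and only the GC and length correction differs in kind. Under all 4, GINS2, PCNA, RFC4 and PRIM1 were called higher and CCND1, POLE and TYMS lower at 8 h. At 24 h, 14 members were called higher under all 4 (CCNE2, CDK2, ORC6, CDC6, GINS3, PCNA, RFC2, RFC3, RFC4, POLE2, PRIM1, RRM1, RRM2 and SLBP), and CCND1, POLE and TYMS lower. When all 54 libraries were used as a further way, PCNA and PRIM1 higher and POLE lower held at 8 h. At 24 h CCNE2, ORC6, CDC6, GINS3, PCNA, PRIM1, RRM2 and SLBP higher and POLE lower held.

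**Figure D1:**
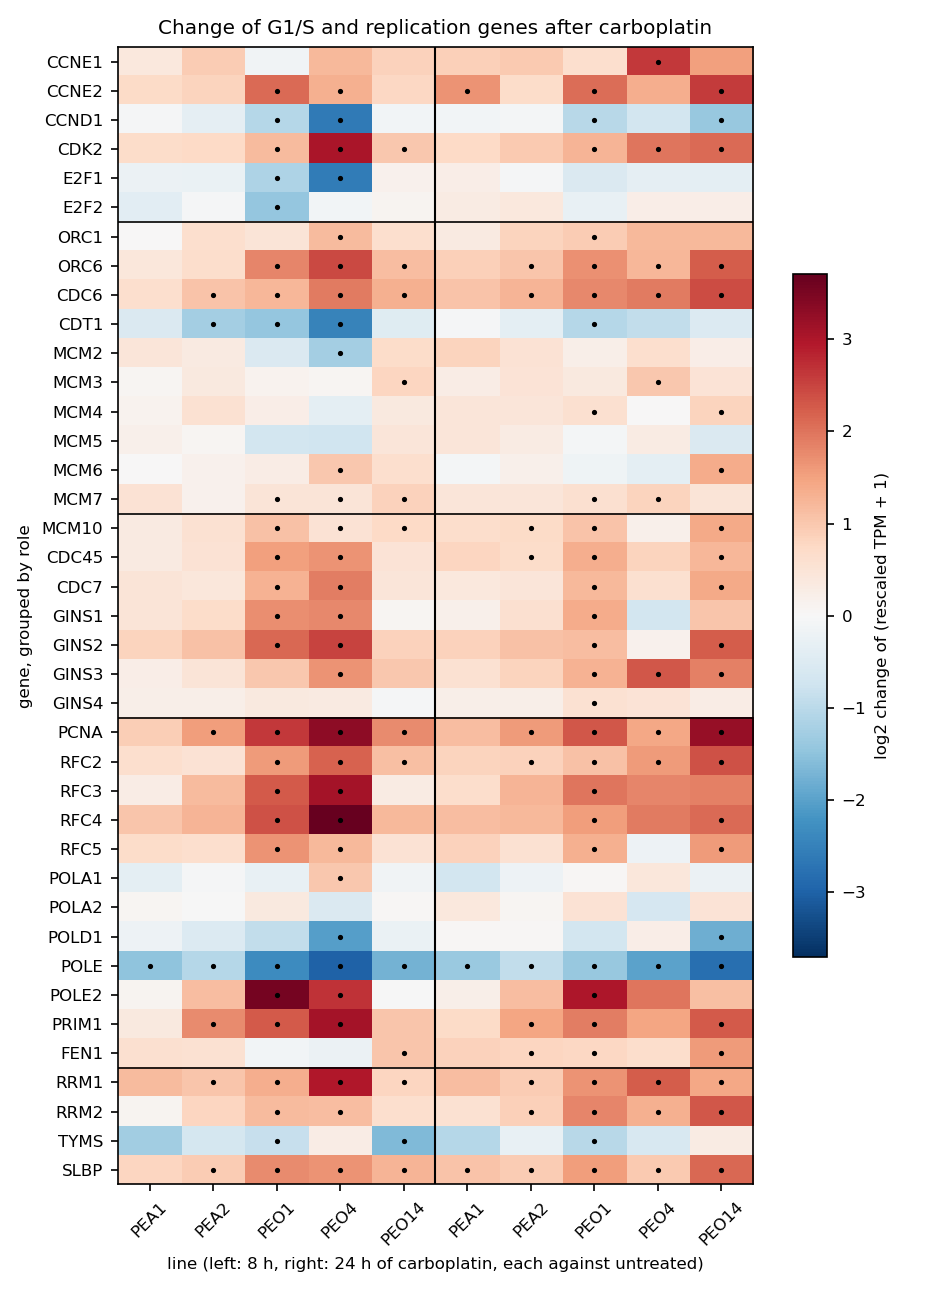
Change of each of the 39 genes (rows, ordered by role) in each line (columns: PEA1, PEA2, PEO1, PEO4 and PEO14 at 8 h and at 24 h against untreated), as a colour for the difference of log2(rescaled TPM + 1); a dot marks adjusted p under 0.05 in limma. POLE carries a dot and a lower level in all 10 columns, and PEO1 and PEO4 hold more dots at 8 h than PEA1.

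By line, no member was called higher in PEA1 at 8 h (0.606% of all genes) and 1 lower (5.3%). In PEA2 5 were higher (3.52%) and 2 lower (10.8%), in PEO1 20 higher (17.4%) and 6 lower (24.4%), in PEO4 24 higher (21.6%) and 6 lower (32%), and in PEO14 11 higher (8.93%) and 2 lower (21.2%). At 24 h the counts were 2 higher (0.784%) and 1 lower (5.23%) in PEA1, and 11 (4.79%) and 1 (12.5%) in PEA2. They were 25 (15.7%) and 4 (22.9%) in PEO1, 12 (7.25%) and 1 (12.7%) in PEO4, and 20 (13.5%) and 3 (22.7%) in PEO14. The members' counts thus followed the number of calls over all genes from line to line. Over the 5 lines together, 60 calls were higher and 17 lower at 8 h (29.2% of all tests), against 5 and 35 without rescaling, and 70 were higher and 10 lower at 24 h (23.6%), against 8 and 10. Without rescaling, 10 of the 26 members called in PEO1 at 8 h and 9 of the 30 in PEO4 at 8 h had the opposite sign, as did 2 of 23 in PEO14 at 24 h, and none of those called in PEA1, PEA2 or PEO14 at 8 h.

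Of the genes of the clamp, its loader and the polymerases, 8 of 12 rose and 2 fell at 8 h (median change 1.07; 3 and 4 without rescaling, where FEN1 had the opposite sign at -0.56), and 8 rose and 1 fell at 24 h (median 1.13; 6 and 3 without rescaling). POLE, the catalytic subunit of the leading-strand polymerase epsilon, was the only member called lower in all 5 lines at both times. CCND1 and CDT1 were also below 0 in all 5 lines at both times, with CCND1 called lower in 2 lines at each time and CDT1 in 3 at 8 h and 1 at 24 h. The level of POLE in untreated libraries was 46.2 in PEA1, 19.9, 22.5 and 20 in PEA2, and 35.6, 36.9 and 27 in PEO1. It was 63, 77.5 and 36.1 in PEO4, and 42.6, 42.4 and 32.2 in PEO14. After 8 h it was 15.8, 15 and 16.9 in PEA1, 10.5 and 8.67 in PEA2, 6.22 and 5.33 in PEO1, 7.74 and 4.82 in PEO4, and 8.8, 10.3 and 13.5 in PEO14. After 24 h it was 17.4, 18.2 and 16.7 in PEA1, 10.3, 11.3 and 10.1 in PEA2, 10.6, 11.6 and 13 in PEO1, 13.5 in PEO4 and 4.77 in PEO14. No treated library of these lines reached the lowest untreated library, and the untreated and treated ranges did not overlap within any line. The change by line at 8 h was -1.48 in PEA1, -1.05 in PEA2, -2.32 in PEO1, -3.00 in PEO4 and -1.76 in PEO14. Averaged over lines, the POLE change was -1.92 (SE 0.14, adjusted p = 1.05e-12, limma) at 8 h and -1.69 (SE 0.15, adjusted p = 1.39e-10) at 24 h. It kept its sign in all 5 lines under each of the 4 ways of processing, with 8 h means of -2.76 without rescaling and -0.74 with the GC and length correction.

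PCNA, the sliding clamp that tethers the replicative polymerases to DNA, moved the other way. Its untreated level was 108 in PEA1, 129, 105.5 and 131 in PEA2, 101.5, 50.5 and 105.8 in PEO1, 20.5, 42.6 and 17.6 in PEO4, and 37.3, 27.4 and 27.8 in PEO14. After 8 h it was 222, 204 and 190 in PEA1, 270 and 476 in PEA2, 356 and 724 in PEO1, 216 and 299 in PEO4, and 127, 137 and 65.3 in PEO14. After 24 h it was 245, 313 and 182 in PEA1, 366, 415 and 323 in PEA2, 386, 460 and 380 in PEO1, 68.4 in PEO4 and 293 in PEO14. Every treated library lay above all untreated libraries of its own line. The second 8 h libraries of PEO1 and PEO4, at 724 and 299, had the smallest scale factors of those kept (0.261 and 0.264). PCNA rose on average by 2.03 (SE 0.18, adjusted p = 7.64e-11, limma) at 8 h and by 1.94 (SE 0.20, adjusted p = 1.76e-09) at 24 h, and was called in 4 of 5 lines at each time. The 8 h mean was 1.07 without rescaling and 1.30 with the GC and length correction. PCNA has 3 named pseudogenes, which could take or lend reads.

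The clamp loader and primase genes moved with PCNA. RFC4, a subunit of the loader, had 9.67, 3.1 and 41.4 in untreated PEO4 and 126 and 204 after 8 h, and rose on average by 1.91 (SE 0.28, adjusted p = 7.68e-07, limma). PRIM1, the catalytic subunit of primase, had 3.05, 2.93 and 18.3 in untreated PEO4 and 55.3 and 56 after 8 h, and rose by 1.70 (SE 0.23, adjusted p = 2.95e-07) at 8 h and by 1.56 (SE 0.25, adjusted p = 6.24e-06) at 24 h. RFC3 rose by 1.42 at 8 h and by 1.51 at 24 h. In untreated PEO4 the 3 libraries spread widely for RFC4 and PRIM1, and replicate 3 was the highest for both. The second 8 h values, 204 for RFC4 and 56 for PRIM1, came from the PEO4 library with the small scale factor (0.264). RFC4 kept a positive sign in all 5 lines at both times under each of the 4 ways of processing. The other polymerase subunits did not move together. POLA1 and POLA2 of the primase complex passed the test in neither mean. POLD1, the catalytic subunit of polymerase delta, fell by 0.78 at 8 h, a change that was 0.37 with the GC and length correction, and was -0.43 at 24 h (adjusted p = 0.0765, limma).

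POLE2, the second subunit of polymerase epsilon, went in the opposite direction to POLE. It was listed at 0, 0 and 2.94 in untreated PEO1 and at 7.33 and 39.4 after 8 h. In PEO4 it was at 3.76, 0 and 6.44 untreated and at 12.8 and 31.3 after 8 h. The second 8 h libraries of these lines, at 39.4 and 31.3, had the smallest scale factors of those kept (0.261 and 0.264). In PEA1 POLE2 was 11 untreated and 10.7, 12.3 and 12.9 after 8 h, so its rise was not seen in every line. Its mean change was 1.49 at 8 h (SE 0.32, adjusted p = 0.000195, limma) and 1.49 at 24 h (SE 0.35, adjusted p = 0.000618), and it was called in 2 of 5 lines at 8 h and 1 of 5 at 24 h. A ratio of 2 genes in the same library does not depend on the scale factor, and TPM is per transcript length. It is not corrected for GC content or length, which differ between these genes. The longest coding transcript has 43.7% GC and 1792 bases in POLE2, 45.2% and 1359 in PCNA, and 56.4% and 7840 in POLE. The part of these differences in the ratios was not tested. The ratio of POLE2 to POLE, chosen after its values were seen, had a median of 0.178 over 13 untreated libraries (0 to 0.370), with POLE2 listed at 0 in 3 of them, 1.11 over 15 at 8 h (0.165 to 7.39) and 1.01 over 14 at 24 h (0.250 to 3.13). The ratio of PCNA to POLE had medians of 1.37, 16.6 and 25.3 at those times. The untreated and 8 h ranges overlapped for both ratios when libraries of all lines were put together. PEO23 is among the treated libraries and not among the untreated ones, so these medians do not cover the same lines.

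**Figure D2:**
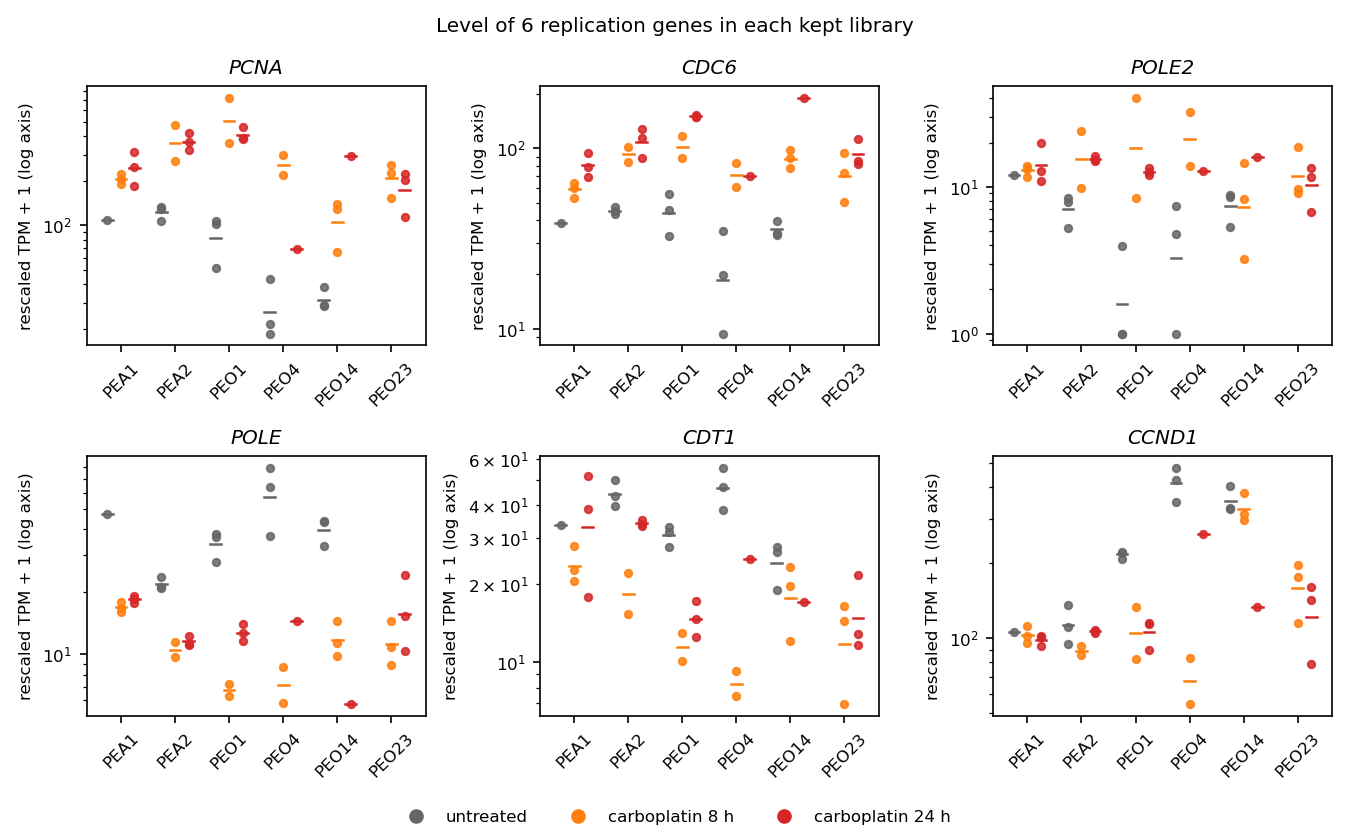
Level (rescaled TPM + 1, log axis) of PCNA, CDC6, POLE2, POLE, CDT1 and CCND1 in each kept library (points) by line and time; bars show the mean level of a group on the log scale. POLE at 8 h lies between 4.82 and 16.9 against 19.9 to 77.5 untreated, and PCNA at 8 h between 65.3 and 724 against 17.6 to 131.

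Origin licensing genes were divided. At 8 h 5 of 10 rose and 1 fell (median change 0.35), but without rescaling none rose and 5 fell, with ORC1 (-0.32), MCM6 and MCM7 of opposite sign. At 24 h 7 rose and 1 fell (median 0.51), against 2 and 1 without rescaling. CDC6, the loader of the MCM ring, had 44.4, 31.7 and 55 in untreated PEO1, 87.5 and 116 after 8 h, and 152, 148 and 148 after 24 h. In PEO14 it had 33, 32.1 and 38.7 untreated, 96.6, 87.8 and 76.4 after 8 h, and 190 after 24 h. The treated libraries lay above the untreated ones in both lines. CDC6 rose on average by 1.22 (SE 0.15, adjusted p = 5.9e-08, limma) at 8 h and by 1.69 (SE 0.17, adjusted p = 1.2e-09) at 24 h, and was called in 4 of 5 lines at each time. ORC6, a subunit of the origin recognition complex, rose by 1.29 at 8 h and by 1.42 at 24 h, with a positive sign in all 5 lines at both times under the 4 ways of processing.

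CDT1, which works beside CDC6 in loading MCM and is destroyed once S phase begins, was the licensing gene that fell. It had 45.9, 54.2 and 37.1 in untreated PEO4 and 6.4 and 8.23 after 8 h, and 38.5, 42.2 and 48.6 in untreated PEA2 and 20.9 and 14.3 after 8 h. After 24 h it was at 23.8 in PEO4 and at 32.1, 34 and 32.9 in PEA2, between the untreated and 8 h levels. CDT1 fell by 1.23 at 8 h and by 0.57 at 24 h on average, and was called lower in 3 lines at 8 h and 1 line at 24 h. With the GC and length correction its mean change was -0.14 at 8 h (adjusted p = 0.376, limma) and 0.29 at 24 h, so that the first call was lost and the second had the opposite sign. The ratio of CDC6 to CDT1 within a library was also chosen after its values were seen. It had a median of 1.14 untreated (0.226 to 2.06), 6.97 at 8 h (2.21 to 9.93) and 4.84 at 24 h (1.35 to 12.8). The untreated and 8 h ranges did not overlap. Here too PEO23 is among the treated libraries only, so the medians do not cover the same lines. This ratio too is not corrected for GC content, which is 45.5% in CDC6 and 64.9% in CDT1, or for length.

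Of the MCM2-7 ring, MCM6 and MCM7 rose at 8 h and MCM2, MCM3, MCM4 and MCM7 at 24 h. Each of these had the opposite sign without rescaling: MCM6 -0.51 and MCM7 -0.45 at 8 h, and MCM2 -0.18, MCM3 -0.14, MCM4 -0.21 and MCM7 -0.11 at 24 h. As reported, MCM2 changed by -0.07 at 8 h (adjusted p = 0.721, limma) and by 0.49 at 24 h (SE 0.17, adjusted p = 0.0139). MCM5 passed the test in neither mean. In PEO1, MCM2 was at 103.5, 89.3 and 95.8 untreated, at 115 and 37.6 after 8 h and at 116, 105.5 and 113 after 24 h, so that the 24 h libraries lay just above the untreated ones. No direction of the ring genes held under all ways of scaling.

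Of the firing and helicase genes, 6 of 7 rose at 8 h (median change 0.90) and all 7 at 24 h (median 0.81), and none fell, while without rescaling 1 rose and 1 fell at 8 h and 1 rose at 24 h. GINS2, a subunit of the GINS complex, had 35.7 in untreated PEA1 and 71.1, 62.3 and 58.5 after 8 h, and 3.86, 18.5 and 26.5 in untreated PEO4 and 63 and 94.3 after 8 h. It rose by 1.47 at 8 h and by 1.09 at 24 h, with a positive sign in all 5 lines at 8 h under the 4 ways of processing. MCM10, which is needed to activate the helicase, had 12.5, 10.6 and 15 in untreated PEO1, 28.8 and 26.8 after 8 h, and 27.7, 25.6 and 28.2 after 24 h. MCM10 rose by 0.65 at 8 h (SE 0.10, adjusted p = 2.05e-06, limma) and by 0.80 at 24 h, but its 8 h mean was -0.26 without rescaling. CDC45 also changed sign at 8 h without rescaling, to -0.03. GINS1 and GINS4, both called higher at 24 h, had -0.14 and -0.28 there without rescaling.

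Among the regulators, 3 of 6 rose and 2 fell at 8 h, against 0 and 3 without rescaling, and 3 rose and 1 fell at 24 h, against 2 and 2. Both cyclin E genes, whose products bind CDK2 at the G1/S transition, rose at both times, except that CCNE1 at 8 h was of opposite sign without rescaling. CCNE2 had 7.5, 6.15 and 12.8 in untreated PEO1, 31.9 and 48.1 after 8 h, and 35.3, 42.4 and 37.1 after 24 h, and its mean change was 1.14 at 8 h and 1.67 at 24 h (SE 0.20, adjusted p = 4.59e-08, limma). CCNE1 rose by 0.65 at 8 h (SE 0.24, adjusted p = 0.0205) and by 1.32 at 24 h (SE 0.26, adjusted p = 8.9e-05), and its 8 h mean was -0.11 without rescaling. CDK2, the kinase that cyclin E binds, rose by 1.32 (SE 0.18, adjusted p = 3.89e-07) at 8 h and by 1.41 at 24 h. CDK2 in untreated PEO4 was at 5.93, 7.89 and 1.76 and after 8 h at 41.4 and 46.1, with no overlap.

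CCND1, the D-type cyclin that acts earlier in G1, fell. In PEO4 it had 426, 475 and 348 untreated, 82 and 53.5 after 8 h, and 259 after 24 h. PEO1 had 206, 218 and 220 untreated, 132 and 81.6 after 8 h, and 112, 88.9 and 114 after 24 h. In PEA1, where it was at 104.6 untreated, the 8 h libraries had 95, 111 and 100.7, so the fall was carried by some lines. The mean change was -0.83 (SE 0.12, adjusted p = 8.72e-07, limma) at 8 h and -0.66 (SE 0.13, adjusted p = 0.000104) at 24 h, and CCND1 was called lower in 2 lines at each time. E2F1 fell by 0.81 at 8 h (SE 0.19, adjusted p = 0.000424) and changed by -0.21 at 24 h (adjusted p = 0.391), and its 8 h change was -0.05 with the GC and length correction (adjusted p = 0.814). In PEO4 E2F1 was at 55, 73.6 and 25.9 untreated, 14.1 and 3.26 after 8 h, and 37 after 24 h. E2F2, at or under 7.04 in all kept libraries, passed the test in neither mean.

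Of the nucleotide supply genes and SLBP, 3 of 4 rose and 1 fell at both times, against 0 and 1 without rescaling at 8 h and 3 and 1 at 24 h. RRM1, the large subunit of ribonucleotide reductase, which makes the deoxynucleotides for DNA synthesis, had 5.36, 5.16 and 8.02 in untreated PEO4, 65 and 45.2 after 8 h, and 32.5 after 24 h. It rose by 1.46 on average (SE 0.16, adjusted p = 2.94e-09, limma) at 8 h and by 1.48 (SE 0.17, adjusted p = 1.74e-08) at 24 h. RRM2, the small subunit whose level follows S phase, had 62.1, 41.8 and 80.5 in untreated PEO1, 117 and 155 after 8 h, and 220, 218 and 199 after 24 h. RRM2 rose by 0.77 at 8 h (SE 0.14, adjusted p = 2.69e-05) and by 1.38 at 24 h (SE 0.15, adjusted p = 1.2e-08). Its 8 h mean was -0.18 without rescaling, while at 24 h it was called under all 5 ways.

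TYMS, the thymidylate synthase, fell, while RRM1 and RRM2 rose at 24 h under each of the 4 ways of processing. It had 256 in untreated PEA1, 83.5, 131 and 104.4 after 8 h, and 115, 165 and 95.2 after 24 h, and in PEO14 28.6, 26.5 and 22.2 untreated, 8.73, 7.25 and 6.71 after 8 h, and 31.8 in the 1 library at 24 h. The mean change was -0.83 at 8 h and -0.53 at 24 h, with a negative sign in 4 of 5 lines under the 4 ways of processing. An exon of TYMS overlaps a gene on the other strand by 719 bases, and it has 2 named pseudogenes. SLBP, which binds the stem-loop of histone mRNAs, rose in 4 lines at 8 h and in all 5 at 24 h, with mean changes of 1.27 and 1.33. In PEO14 it was at 39.4, 33.6 and 29.6 untreated, 89.7, 83.3 and 73.4 after 8 h, and 153 after 24 h.

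**Figure D3:**
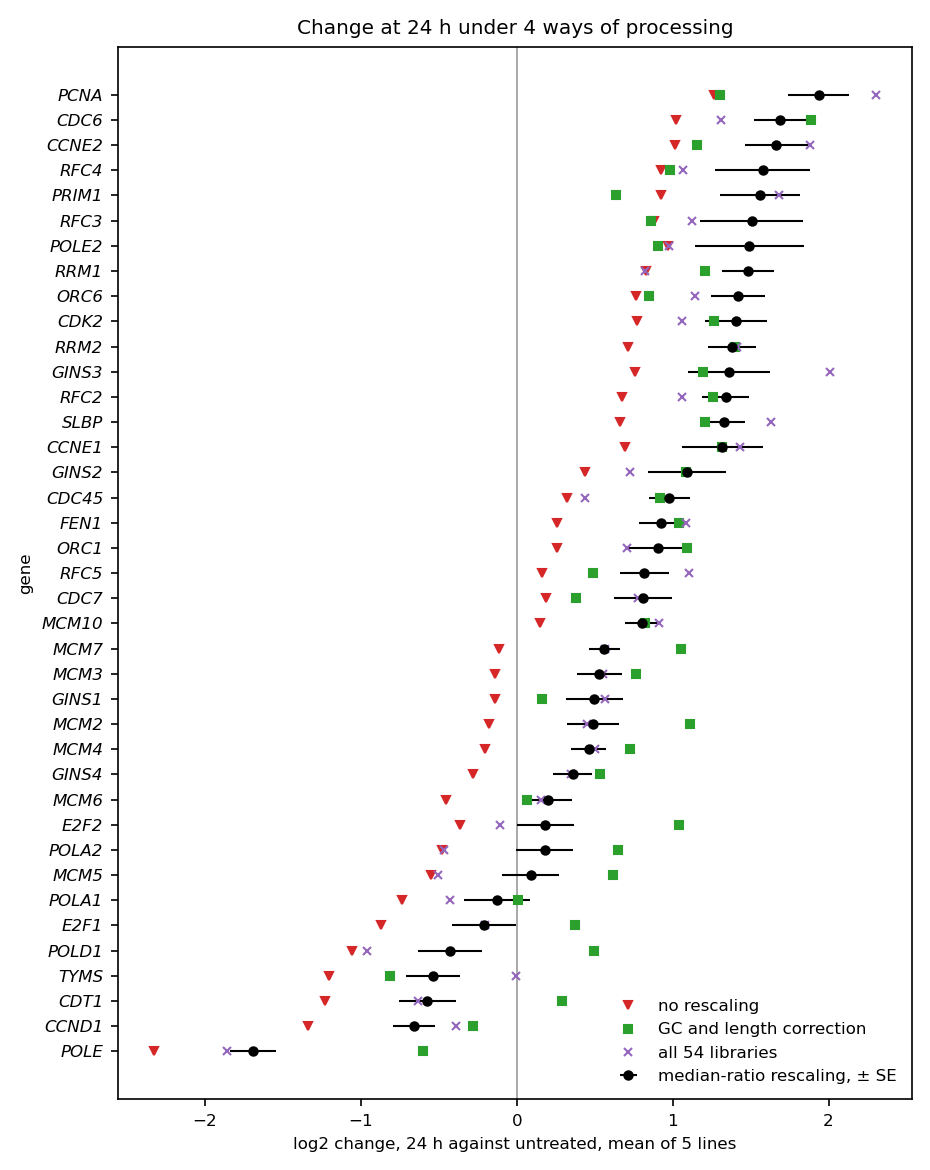
Mean change at 24 h against untreated over 5 lines (x axis, log2 of rescaled TPM + 1) for each of the 39 genes (rows) as reported, without rescaling, with the GC and length correction, and with all 54 libraries; horizontal bars are the SE of the reported fit. POLE stays below 0 and PCNA above 0 under all 4, while 14 genes lie on both sides of 0, of which 7 were called as reported (MCM2, MCM3, MCM4, MCM7, GINS1, GINS4 and CDT1).

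The changes of the members ran with the GC content and the length of their longest coding transcripts. Across the 39 genes, the correlation of the 8 h mean change with GC content was r = -0.68 and with log2 length r = -0.60, and at 24 h -0.57 and -0.59. The same correlations across 14844 tested genes were -0.40 and -0.24 at 8 h and -0.32 and -0.27 at 24 h, and all of these points share the same libraries. Of the 20 members of lower GC content (36.9% to 48.5%), 17 rose and none fell at 8 h, with a median change of 1.04. Of the 19 of higher GC content (49.1% to 65%), 8 rose and 6 fell, with a median of -0.01. After a correction of every library for GC content and length, 24 of the 25 members called higher and 3 of the 6 called lower at 8 h kept their call, and 27 of 28 and 3 of 4 at 24 h. The part of GC content and length in the remaining changes was not tested. Ribosomal protein genes held a median of 12.2% of the TPM untreated, 19.8% at 8 h and 19.7% at 24 h, and their part in the changes was not tested.

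**Figure D4:**
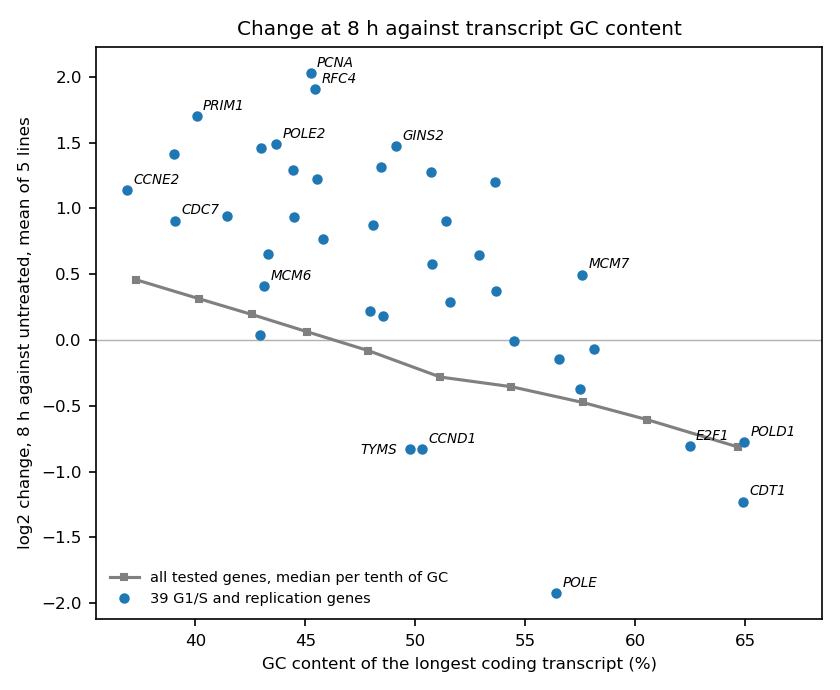
Mean change at 8 h over 5 lines (y axis, log2 of rescaled TPM + 1) against the GC content of the longest coding transcript (x axis, percent) for the 39 genes (points), with the median change of all genes in 10 equal groups by GC content (line). The line falls from 0.46 in the lowest group to -0.81 in the highest, PCNA lies above it and POLE below.

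Between 8 h and 24 h of carboplatin few members changed. Averaged over 6 lines, FEN1, the flap endonuclease of Okazaki fragment processing, rose by 0.50 (SE 0.12, adjusted p = 0.032, limma) and RRM2 by 0.58 (SE 0.13, adjusted p = 0.0215), and none fell (1.55% of all genes called, 0.506% higher and 1.04% lower). Both calls were lost without rescaling, and also without the second PEO4 library at 8 h. Same-numbered 8 h and 24 h cultures share a passage, and 4 members were called with the replicate number as a block. Over single lines, 8 calls were higher and 6 lower (2.87% of all tests), against 5 and 0 without rescaling and 3 and 3 with the GC and length correction. Of these, 10 were in PEO4 (14.1% of all genes) and 4 in PEO14 (2.52%), each with 1 kept library at 24 h, and none were in PEA1 (0.0278%), PEA2 (0%), PEO1 (0.217%) or PEO23 (0.395%), where limma called few genes of any kind. In PEO4 GINS1 (-2.46), GINS2 (-2.36), PCNA (-1.88), RFC5 (-1.40) and MCM6 (-1.36) fell from 8 h to 24 h, while POLD1 (2.28), E2F1 (2.25), CCND1 (1.95), MCM2 (1.90) and CDT1 (1.58) rose. PCNA there went from 216 and 299 to 68.4, and E2F1 from 14.1 and 3.26 to 37. In PEO14 CCND1 fell (-1.31) while TYMS (1.94), CCNE2 (1.84) and RRM2 (1.67) rose. CCND1 thus went in opposite directions in the resistant PEO4 and the sensitive PEO14 between the 2 times. The difference between these 2 lines was not tested.

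The partners of a pair were then compared at each time. In the PEA pair, 4 of 39 members differed untreated (11.6% of all genes called), 4 at 8 h (16.2%) and 5 at 24 h (18.7%). MCM10 was lower in the resistant PEA2 at all 3 times, with 8.15, 6.88 and 7.02 untreated against 62.5 in PEA1, 12.2 and 10.4 against 76.3, 77.8 and 84.9 at 8 h, and 16.1, 11.7 and 10.8 against 96.2, 106.4 and 93.5 at 24 h. No library of one line came near the other among those kept. The difference was -2.93 untreated (SE 0.27, adjusted p = 2.01e-09, limma), -2.71 at 8 h (SE 0.22, adjusted p = 4.56e-11) and -2.87 at 24 h (SE 0.19, adjusted p = 7.5e-13). TYMS was also lower in PEA2 at all 3 times (-1.94, -1.31 and -1.15), and CDC45, the helicase subunit, was higher (1.11, 1.31 and 0.99). ORC6 was higher in PEA2 at 8 h (1.43) and 24 h (1.33). With all 54 libraries no call in this pair held, and the untreated MCM10 difference was -0.69 (adjusted p = 0.891). That fit takes in the 12 libraries set aside. In earlier results of these data 3 of them resembled another line, which was not tested again here. The high passage of PEA1 and its sensitivity cannot be told apart here.

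**Figure D5:**
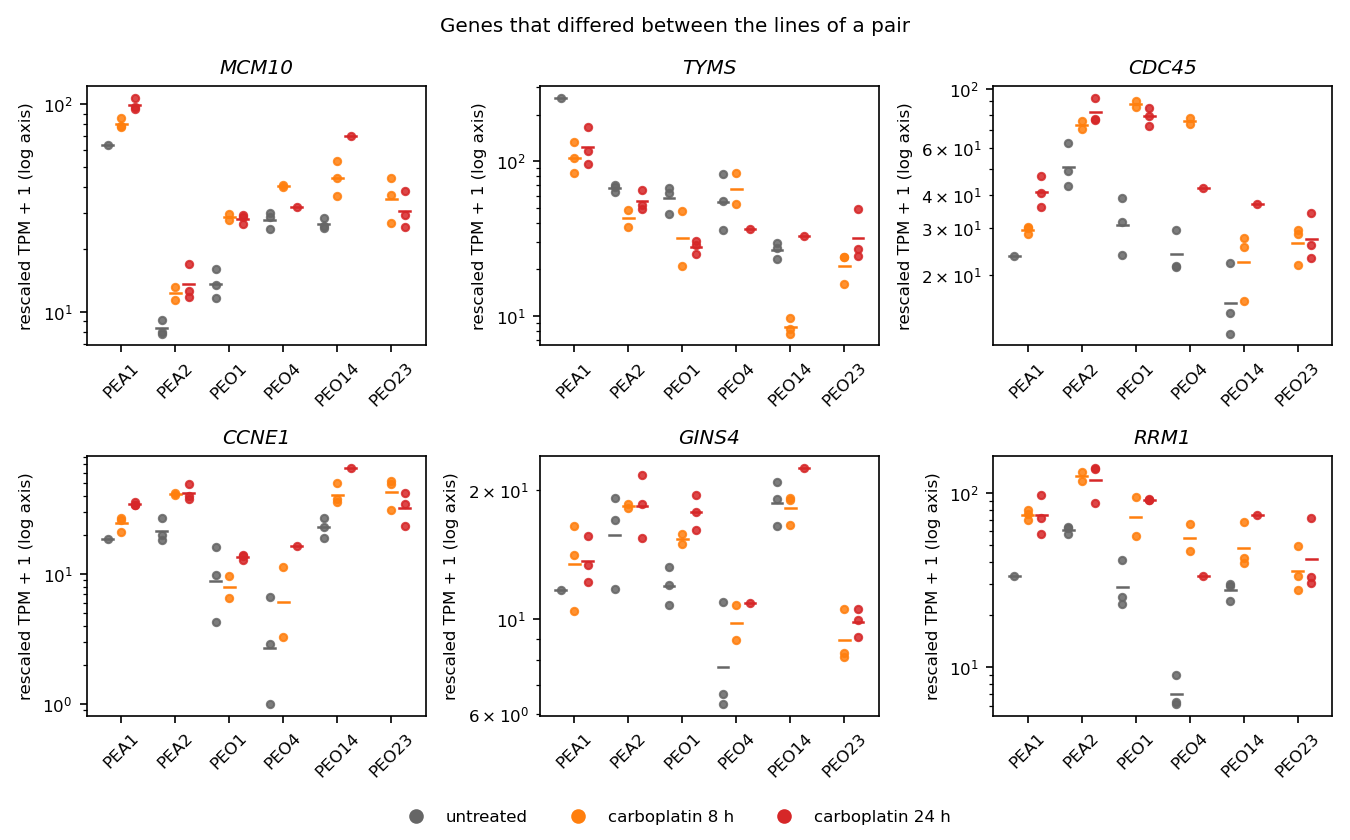
Level (rescaled TPM + 1, log axis) of MCM10, TYMS, CDC45, CCNE1, GINS4 and RRM1 in each kept library (points) by line, with the times as colours; PEO23 has no kept untreated library. MCM10 is at 6.88 to 16.1 in PEA2 and at 62.5 to 106.4 in PEA1, with no overlap at any time.

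In the PEO1 and PEO4 pair, 16 members differed untreated (28.4% of all genes called), 1 at 8 h (9.91%) and 8 at 24 h (21.5%). Untreated PEO4 was lower in 11, among them RRM1 (-2.03), POLA1 (-1.73), CCNE1 (-1.71), PCNA (-1.67), GINS3 (-1.47), CDK2 (-1.43), PRIM1 (-1.30) and CDC6 (-1.23). It was higher in 5: CCNE2 (1.38), SLBP (1.23), MCM10 (1.03), CCND1 (0.94) and POLE (0.76). RRM1 was at 5.36, 5.16 and 8.02 in PEO4 against 24.4, 21.9 and 40 in PEO1, with no overlap. For 10 of the 16 members called untreated, among them CCNE1, CDK2, GINS3, PRIM1 and CDC6, the libraries of the lines overlapped. RRM1 was the 1 call of the 16 that held in a fit of the compared groups alone, none held with all 54 libraries, and 7 to 11 held when replicate 1, 2 or 3 was left out. At 8 h SLBP was the 1 member called (1.14, SE 0.28, adjusted p = 0.0072, limma). That call did not hold without rescaling (adjusted p = 0.365), without RMRP and RPPH1, in a fit of the compared groups alone (adjusted p = 0.402), without replicate 1 or 2, or with all 54 libraries, where the change was between 0.98 and 1.30. RRM1 was at 65 and 45.2 against 93.6 and 55.1, so that the lines overlapped. At 24 h PEO4, with 1 library, was lower in PCNA (-2.56), GINS2 (-2.20), GINS1 (-2.13), RRM1 (-1.45), RRM2 (-1.23) and RFC5 (-1.23). PEO4 was higher there in MCM3 (1.28) and CCND1 (1.3). Some of these calls were lost without rescaling, without RMRP and RPPH1, with the GC and length correction, or with all 54 libraries.

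In the PEO14 and PEO23 pair, 6 members differed at 8 h (14.9% of all genes called) and 6 at 24 h (5.16%). PEO23 was lower at 8 h in ORC1 (-1.10), CCND1 (-1.06) and GINS4 (-1.03) and higher in TYMS (1.31), GINS1 (0.96) and RFC5 (0.83). The RFC5 difference was -0.04 without rescaling. GINS4 was at 7.13, 9.54 and 7.32 in PEO23 and at 17.9, 18.2 and 15.6 in PEO14, with no overlap. At 24 h, against 1 library of PEO14, PEO23 was lower in ORC1 (-1.64), RRM2 (-1.55), MCM10 (-1.20) and GINS4 (-1.19) and higher in MCM5 (1.74) and POLE (1.44). None of these 6 calls held without rescaling, without RMRP and RPPH1, or in a fit of the compared groups alone. No member had calls of 1 direction in every pair at 8 h or at 24 h, and untreated MCM10 and POLE were lower in PEA2 than PEA1 but higher in PEO4 than PEO1. Over the pairs, calls higher and lower in the resistant line numbered 6 and 14 untreated (20% of all tests), 6 and 5 at 8 h (13.6%) and 6 and 13 at 24 h (15.1%), against 1 and 11, 1 and 10, and 1 and 5 without rescaling.

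Whether the response itself differed between partners was tested for 7 differences of a change. Of the 273 tests on members 2 passed (0.733%), near the 0.785% called over all genes for the same differences. Both were CCND1 in PEO4 against PEO1, whose fall at 8 h was greater in PEO4 by 1.58 (SE 0.37, adjusted p = 0.0154, limma) and whose change from 8 h to 24 h was higher by 1.95 (SE 0.44, adjusted p = 0.0291). PEO4 has 2 kept libraries at 8 h and 1 at 24 h, and neither call held without rescaling (adjusted p = 0.494 and 0.57), in a fit of the compared groups alone, with all 54 libraries or without the second PEO4 library at 8 h. For the other members, a response called in one partner and not in the other is not shown to differ.

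The other genes of the same pathways were counted from lists that hold no member. Of 31 other G1/S regulators, 12 rose and 6 fell at 8 h in the mean over lines (median change 0.18; 2 and 15 without rescaling), and 12 rose and 5 fell at 24 h (0.23; 2 and 14). Of 43 other replication genes, 24 rose and 13 fell at 8 h (0.50; 9 and 20), and 22 rose and 11 fell at 24 h (0.45; 10 and 13). Of 30 G2/M genes, 21 rose and 4 fell at 8 h (0.62; 7 and 11), and 11 rose and 6 fell at 24 h (0.22; 2 and 11). As reported, the genes of G2 and mitosis thus had a median at 8 h close to that of the 39 members. With the GC and length correction the medians were 0.37 for the G2/M genes and 0.62 for the members. From 8 h to 24 h, 11 of the 30 G2/M genes fell and none rose, against 0 and 0 without rescaling and 12 and 0 with the GC and length correction, while 4 other replication genes rose and none fell, against 1 and 0 without rescaling. CDC25A, the phosphatase that activates CDK2, rose by 0.54 at 8 h (adjusted p = 0.0228, limma), where it had -0.28 without rescaling, and by 0.92 at 24 h (adjusted p = 0.000832). CDKN1A, the CDK inhibitor p21, changed by -0.07 at 8 h (adjusted p = 0.858) and rose by 0.91 at 24 h (SE 0.35, adjusted p = 0.0277), where it had 0.41 without rescaling (adjusted p = 0.397).

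PEO23 can be set against its untreated cultures only with the libraries that were set aside. Its 3 untreated libraries listed 11151, 2678 and 2985 genes. With all 54 libraries in the fit, 24 members were called higher at 8 h and 25 at 24 h and none lower. Of all genes, 32.9% and 33.2% were called higher and 2.69% and 2.57% lower. The all-gene median change was 1.18 at 8 h and 1.21 at 24 h, against 3.11 and 3.23 for the members. POLE did not fall in that fit (0.42, adjusted p = 0.705, and 0.92, adjusted p = 0.311, limma). CDT1 (2.51 and 2.85) and TYMS (0.62 and 1.23) were above 0 too, and CCND1 was below it (-0.53 and -0.88). Among kept libraries POLE in PEO23 was at 9.89, 13.5 and 7.86 after 8 h and at 9.38, 14.4 and 23 after 24 h, and PCNA at 152, 224 and 256 and at 201, 220 and 113. These lie within the range of the treated libraries of the other lines, except POLE at 23.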

How the data were processed

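Total RNA of 54 cultures was sequenced as stranded libraries, per the labels' protocols. The authors deposited 1 table of gene TPM (length-normalised transcript shares of a fixed total), named for RSEM; bcl2fastq 2.18 and build hg19 are listed per the submitters' processing notes. The aligner, annotation and strand setting were not given in the sources used here. TPM keeps no depth, so depth and counting error are unknown. The series text gives the carboplatin dose in mM and the labels' protocol in µM; µM is used.

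The 12 libraries listing under 12000 genes and 28 rows with date-like symbols were left out. TPM of the 42 kept libraries was divided by a median-ratio factor over 8271 genes (0.2609 to 1.729), and log2(value + 1) was fitted with limma 3.58.1 in R 4.3.3 (trend, 17 group means, 25 residual degrees of freedom), for genes at 1 TPM or more in at least 3 libraries. The script was tested on simulated data. P-values measure the spread between cultures of a line. The members and lists were chosen with earlier results of these data known. All members could be named; SE and p are given for called members among the 10 largest changes of a comparison, and for CCNE1, CCND1, E2F1, CDC6, MCM2, MCM10, PCNA and RRM2. Other genes are counted by list, except CDKN1A and CDC25A.

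Same-numbered 8 h and 24 h cultures have the same passage in 18 of 18 cases by the labels, so the number pairs them; their deviations from group means correlated from -0.247 to 0.411 over 10 pairs, with 2 above 0.1. Untreated cultures are not paired with treated ones. GC content, length and overlaps came from GENCODE v29, and promoters from RefSeq GRCh38.p14. By that annotation 14 members share exonic bases with a gene on the other strand (at least 500 in CCNE2, GINS4, MCM2 and TYMS) and 6 have named pseudogenes, so their values are uncertain to that extent. Alternatives were all 54 libraries, no rescaling, a pseudocount of 0.1, no filter, a replicate block, fits of the compared groups alone, replicates left out and, chosen after seeing the data, the GC and length correction, RMRP and RPPH1 left out of the TPM total, single libraries left out and lines left out of the mean.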

Additional observations from a re-analysis of the deposited data

Results flagged for a closer look

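For CCND1 the treatment change differed between PEO4 and PEO1 by a test of the difference itself. The difference in the 8 h change was -1.58 (SE 0.37, adjusted p = 0.0154, limma) and that in the change from 8 h to 24 h was 1.95 (SE 0.44, adjusted p = 0.0291). With the GC and length correction the values were -1.41 (adjusted p = 0.0135) and 1.77 (adjusted p = 0.0369), and without rescaling -1.49 (adjusted p = 0.494) and 1.89 (adjusted p = 0.57). Without the second 8 h library of PEO4 neither passed the threshold. Neither held in a fit of the compared groups alone, with all 54 libraries, without RMRP and RPPH1, or without replicate 1, 2 or 3. They were 2 of 273 tests on members over 7 differences (0.733%), near the 0.785% called over all genes.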

How the results depend on the processing

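Counts are of members called over all lines or pairs of a comparison unless a mean is named, against 77 (8 h), 80 (24 h), 14 (24 h against 8 h), 20, 11 and 19 (partners untreated, at 8 h and at 24 h) and 2 (differences of a change) as reported, and 31, 32 and 2 in the means. With all 54 libraries, where only 390 genes set the scale, they were 3, 5, 0, 0, 0, 6 and 0, and 13, 12 and 0 in the means. Without rescaling they were 40, 18, 5, 12, 11, 6 and 0, and 18, 21 and 0. Without RMRP and RPPH1 in the TPM total, 48, 33 and 6 were called against untreated and between times, 8 between partners at 24 h, 0 differences and 1 in the mean of 24 h against 8 h. In fits of the compared groups alone, 3 were called between times, 5, 18 and 38 between partners, and 0 differences. The GC and length correction gave 6 between times and 17 between partners at 8 h. With the replicate block, 4 differences and 4 members in the mean of 24 h against 8 h were called, and it moved no other count by over 1.5 times; the block with the GC and length correction gave 8 between times and 5 in that mean. That mean gave 0, 1, 9 and 0 with PEO1, PEO4, PEO14 or PEO23 left out of it. The pseudocount of 0.1 and no filter moved no count by over 1.5 times. The cause of these shifts was not tested.

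Leaving out replicate 1, 2 or 3 gave 50 to 66 (8 h), 46 to 74 (24 h), 2 to 13, 9 to 15, 5 to 7, 9 to 16 and 0 to 1, and 29 to 31, 29 to 31 and 0 to 1 in the means; leaving out single libraries gave 67 to 80, 69 to 87, 7 to 17, 15 to 22, 9 to 16, 16 to 29 and 0 to 5, and 30 to 33, 32 to 33 and 0 to 6. A lone sample of a group is then assumed to vary like the others. The extremes came without the second PEO4 library at 8 h (7 between times, 0 differences, 0 in the mean between times) and the third untreated PEO4 library (29 between partners at 24 h, 5 differences, 6 in that mean).

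Reversed signs without rescaling in the 8 h mean were CCNE1 -0.114, ORC1 -0.319, MCM6 -0.508, MCM7 -0.455, MCM10 -0.264, CDC45 -0.0332, FEN1 -0.562 and RRM2 -0.18. Without RMRP and RPPH1 they were ORC1 -0.161, MCM6 -0.347, MCM7 -0.283, MCM10 -0.0999, FEN1 -0.397 and RRM2 -0.00785. In the 24 h mean MCM2 had -0.18 and -0.0776 under those 2 settings, MCM3 -0.142 and -0.0384, MCM4 -0.206 and -0.104, MCM7 -0.113 and -0.00885, GINS1 -0.139 and -0.0421, and GINS4 -0.277 and -0.18. With the GC and length correction POLD1 had 0.369 at 8 h and CDT1 0.293 at 24 h. Between PEO23 and PEO14, RFC5 at 8 h had -0.0367 without rescaling and ORC1 at 24 h had 0.193 with all 54 libraries. Depth is unknown, and levels near 1 TPM are the least certain.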
